A study of Mus musculus with 8 samples.

Results

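The genes described here are 10 members of the transforming growth factor β (TGF-β) pathway in islets of mice with *Itgb1*, the integrin β1 gene, deleted in endocrine progenitors. They comprise 3 ligands (*Tgfb1*, *Tgfb2* and *Tgfb3*), a protein that binds the latent ligand in the matrix (*Ltbp1*), 3 receptors (*Tgfbr1*, *Tgfbr2* and *Tgfbr3*), 2 receptor-activated Smads (*Smad2* and *Smad3*) and an inhibitory Smad (*Smad7*). They were taken from a table of 24091 genes by gene symbol, and all 10 passed the low count filter that left 15233 genes to test. In mutant islets *Tgfb1* was 2.15-fold higher than in controls, and every mutant library lay above every control library, as for 4.4% of all genes tested. The size of this difference depended on the libraries used. Its log2 fold change was 1.11 over all 8 libraries and 0.60 among the 5 libraries under 50 M counts. *Tgfbr2*, *Tgfb3*, *Ltbp1*, *Smad3* and *Smad7* also had higher means, with libraries of the 2 genotypes overlapping, while *Tgfbr1*, *Smad2* and *Tgfb2* had nearly equal means. No member passed an adjusted p of 0.05 in edgeR's quasi-likelihood test, which 0% of all genes passed. *Tgfb1* alone passed that threshold in DESeq2, where it was higher as were 1.23% of all genes. The study's own comparison, which corrected for batches, did report genes that passed an adjusted p of 0.05 with a fold change above 2.

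TGF-β is secreted as a latent complex, in which the ligand dimer stays wrapped in its own propeptide, and this complex is tethered to matrix fibrils by latent TGF-β binding proteins. αv integrins on neighbouring cells can pull on the propeptide and free the ligand. The free ligand binds the type II receptor Tgfbr2, which phosphorylates the type I receptor Tgfbr1, and this in turn phosphorylates Smad2 and Smad3, which join Smad4 and enter the nucleus. Smad7 is a target of the pathway that blocks the type I receptor. In tissues with fibroblasts the pathway is known for driving the synthesis of collagen and other matrix, and in the pancreas it is known for its action on stellate cells and on islet development.

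RNA was sequenced from islets of 4 control samples, labelled wild-type, and 4 mutant samples carrying *Ngn3-Cre* and lacking *Itgb1* (*Itgb1* ΔEndo/ΔEndo), all on a C57BL/6 background and from mice 6 weeks old. *Ngn3-Cre* removes the floxed *Itgb1* gene in endocrine progenitors, so that vascular, ductal and stromal cells of the islet preparation are not its intended target. Whether the gene was removed in some of those cells was not tested here. The study points out that *Ngn3* is also expressed in brain and gut. Islets were freed with collagenase, collected under a stereomicroscope and kept in medium overnight before RNA isolation. Whether the control mice carried *Ngn3-Cre*, and whether each library stands for a separate mouse, is not given in the sources used here, so p-values measure only the spread between libraries.

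Levels are given in CPM, the reads assigned to a gene scaled to the size of its library with TMM composition factors. Total counts were 35.1 to 67.6 M in controls and 39.6 to 63.9 M in mutants, and control 2, control 3 and mutant 3 were the 3 libraries of more than 50 M, here called the larger libraries. Each member had between 166 and 6294 reads in a library. *Itgb1* had 422, 432, 408 and 315 CPM (controls 1 to 4) against 266, 225, 193 and 255 CPM (mutants 1 to 4), so that every library fitted its label for the targeted gene. Summed CPM of 13 acinar markers ranged from 33.9 to 11546 in controls, with control 2 and control 3 the highest at 3785 and 11546, and from 99.4 to 873 in mutants. Summed CPM of 12 islet endocrine markers was 62114 to 290306 in controls and 50852 to 77481 in mutants. Because control 2 and control 3 stood apart, fold changes are also given without the larger libraries. That set leaves out mutant 3 as well, whose acinar and endocrine sums were 142 and 77481 CPM. Fold changes with only control 2 and control 3 left out are given at the end. In whole islets, a lower level per cell and a smaller share of cells that express a gene cannot be told apart.

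Promoters are printed for 3 members picked by their values. They are the ligand whose libraries did not overlap between genotypes and both receptors whose ratio within a library separated the genotypes. That ratio was chosen after the values were seen. Of the 10 members, 6 had an entry in the RefSeq promoter table of build GRCm38.p6, namely *Tgfb1*, *Tgfb2*, *Tgfbr1*, *Tgfbr2*, *Smad3* and *Ltbp1*. The 250 bases before the transcription start are given 5′ to 3′ on the strand of the gene, from chr7:25686752-25687001 (plus strand) for *Tgfb1*, chr4:47352972-47353221 (plus strand) for *Tgfbr1* and chr9:116175364-116175613 (minus strand) for *Tgfbr2*. For *Tgfbr1*, which has more than 1 entry, the start shown is that of the gene. Capitals mark GGGCGG, the GC box, and CAGAC, a Smad-binding motif, on either strand.
Tgfb1: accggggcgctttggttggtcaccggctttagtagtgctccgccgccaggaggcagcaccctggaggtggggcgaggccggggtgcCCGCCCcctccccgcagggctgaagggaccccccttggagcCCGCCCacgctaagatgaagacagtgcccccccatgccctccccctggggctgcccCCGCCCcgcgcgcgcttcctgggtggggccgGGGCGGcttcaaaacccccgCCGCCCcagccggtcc
Tgfbr1: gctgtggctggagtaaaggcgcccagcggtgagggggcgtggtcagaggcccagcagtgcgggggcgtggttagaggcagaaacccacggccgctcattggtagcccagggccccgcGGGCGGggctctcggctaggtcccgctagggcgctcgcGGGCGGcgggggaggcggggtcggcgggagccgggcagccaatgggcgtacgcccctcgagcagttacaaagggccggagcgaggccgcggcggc
Tgfbr2: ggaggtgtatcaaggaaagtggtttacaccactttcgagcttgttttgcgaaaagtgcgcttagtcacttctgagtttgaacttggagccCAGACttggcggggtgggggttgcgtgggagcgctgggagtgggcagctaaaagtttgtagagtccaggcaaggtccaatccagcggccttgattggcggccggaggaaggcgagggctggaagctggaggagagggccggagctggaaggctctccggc
GGGCGG was found 5 times before *Tgfb1*, 2 times before *Tgfbr1* and not before *Tgfbr2*, which held a single CAGAC. G and C made up 75.2%, 74.8% and 58.4% of the 3 windows of *Tgfb1*, *Tgfbr1* and *Tgfbr2*. Of 32851 promoter windows of the same length, 32.7% held GGGCGG and 42.2% held CAGAC. The longer Smad motif GTCTAGAC and the AP-1 motif TGANTCA, which are held by 0.167% and 6.75% of all windows, occurred in none of the windows of the 6 members. These motifs do not overlap each other in the windows shown, and a match describes letters only.

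The first question was which ligands the islets expressed and whether their levels differed between genotypes. *Tgfb1*, the most widely expressed TGF-β ligand, lies on chromosome 7 from 25687002 to 25705077 on the plus strand. In CPM, controls 1 to 4 had 24.3, 14.7, 11.6 and 24.1, and mutants 1 to 4 had 38.5, 33.6, 50.2 and 38.3. Every mutant library was above every control library, mutant 3 was the highest of all, and control 2 and control 3 were the lowest. Means were 18.7 ± 6.5 CPM in controls and 40.1 ± 7.06 CPM in mutants (SD, n = 4). Mutants differed from controls by a log2 fold change of 1.11 (SE 0.26), a 2.15-fold difference with a 95% interval of 1.44 to 3.22. Over all genes tested, edgeR's quasi-likelihood test gave an adjusted p of 0.301 and DESeq2 an adjusted p of 0.00928, and the exact two-sided permutation test gave p = 0.0286, the smallest that 4 against 4 libraries allow.

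The size of the *Tgfb1* difference depended on the libraries used. Among the 5 smaller libraries, the 3 mutants (33.6 to 38.5 CPM) remained above the 2 controls (24.1 and 24.3 CPM), with a log2 fold change of 0.60 (SE 0.087) and an edgeR adjusted p of 0.0714. Mutant 3 stood 1.95 above control 2 and control 3 on the log2 scale. The genotype difference was larger in the larger libraries by 1.33 (SE 0.21) on the log2 scale (edgeR adjusted p = 0.0173), an estimate in which a single mutant library stands for the larger set. At the same threshold, 11.4% of all genes had a genotype difference that differed between larger and smaller libraries.

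*Tgfb2*, a ligand known for its part in epithelial and heart development, lies on chromosome 1 from 186623186 to 186705992 on the minus strand. Controls 1 to 4 were at 6.18, 11.8, 10.1 and 4.39 CPM, mutants 1 to 4 at 8.3, 6.98, 9.07 and 7.76 CPM. The controls spanned the whole range of the mutants, with the larger libraries, control 2 and control 3, above all mutants and the smaller ones below. On the log2 scale the fold change was -0.02 (SE 0.30, 95% interval -0.70 to 0.67, edgeR adjusted p = 0.984). Its sign turned among the 5 smaller libraries, where the log2 fold change was 0.54 (edgeR adjusted p = 0.176), and it was -0.25 for mutant 3 against control 2 and control 3. Control 2 and control 3, where *Tgfb2* was highest, also had the highest summed levels of acinar and endocrine markers, whose part in this order was not tested.

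*Tgfb3*, a ligand known for palate fusion, lies on chromosome 12 from 86056743 to 86079041 on the minus strand. In CPM, controls 1 to 4 had 4.98, 3.77, 6.19 and 3.96, and mutants 1 to 4 had 10.5, 6.76, 5.23 and 7.54. Mutant 3 lay within the control range and the other mutants above it. The difference between genotypes was a log2 fold change of 0.67 (SE 0.26), with an adjusted p of 0.339 in edgeR and 0.199 in DESeq2. The 3′ end of *Tgfb3* overlaps *Ttll5* on the opposite strand, and with counting that did not use strand the reads of the shared stretch cannot be told apart.

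*Ltbp1*, which anchors latent TGF-β in the matrix, lies on chromosome 17 from 75005529 to 75392967 on the plus strand. Controls 1 to 4 were at 23.1, 6.66, 7.62 and 10.5 CPM, mutants 1 to 4 at 42.1, 17.1, 7.81 and 30.4 CPM. Mutant 1 and mutant 4 were the highest, and mutant 3 lay among the controls. Means were 12 ± 7.6 CPM in controls and 24.3 ± 15 CPM in mutants (SD, n = 4). The log2 fold change of 1.02 (SE 0.55) was about as large as that of *Tgfb1*, but its spread was wider and the edgeR adjusted p was 0.414. It was 0.59 with a term for library size division and 0.15 for mutant 3 against control 2 and control 3.

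**Figure D1:**
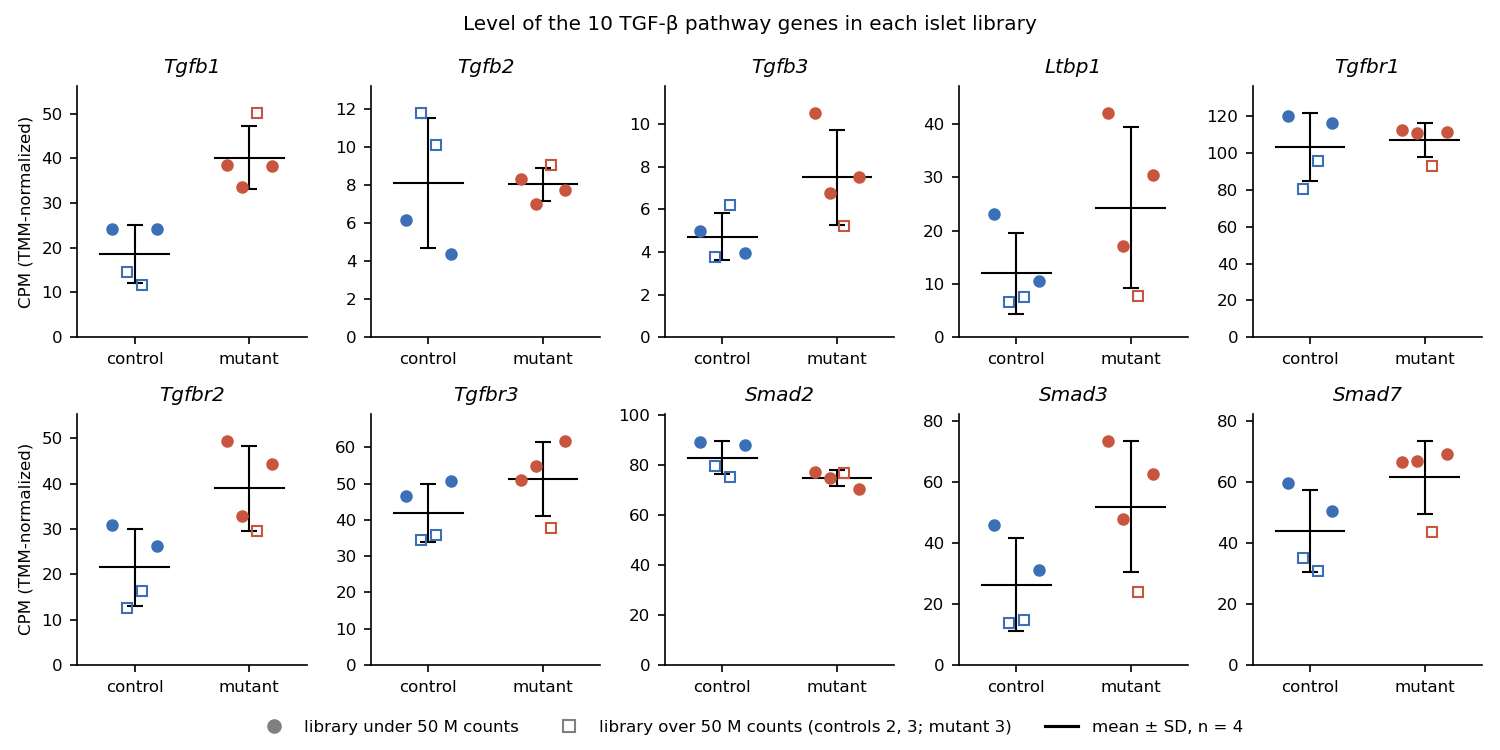
Level of the 10 TGF-β pathway genes in each islet library, in CPM after TMM normalization, by genotype. Circles are libraries under 50 M counts, open squares those over 50 M, and bars give mean ± SD of 4 libraries. The 4 mutant libraries of *Tgfb1* lie between 33.6 and 50.2 CPM, above all controls, while in the other panels the genotypes overlap.

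Among the 3 receptors the difference between genotype means was largest for *Tgfbr2* and smallest for *Tgfbr1*. *Tgfbr1*, the type I receptor kinase, lies on chromosome 4 from 47353222 to 47414924 on the plus strand. In CPM, controls 1 to 4 had 120, 80.7, 95.8 and 116, and mutants 1 to 4 had 113, 111, 93 and 112. All mutant libraries fell within the control range, and the 3 smaller mutants differed by no more than a few CPM. Its log2 fold change was 0.05 (SE 0.14, edgeR adjusted p = 0.888), and the 95% interval of the fold change was 0.826 to 1.3. Its sign turned to -0.09 among the 5 smaller libraries.

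*Tgfbr2*, the type II receptor that binds the ligand, lies on chromosome 9 from 116087695 to 116175363 on the minus strand. Controls 1 to 4 were at 30.8, 12.5, 16.4 and 26.3 CPM, mutants 1 to 4 at 49.5, 32.8, 29.6 and 44.2 CPM. Control 1 and mutant 3 were the only libraries out of order, at 30.8 and 29.6 CPM. Means were 21.5 ± 8.52 CPM in controls and 39 ± 9.37 CPM in mutants (SD, n = 4). Mutants differed from controls by a log2 fold change of 0.86 (SE 0.30), with an adjusted p of 0.333 in edgeR and 0.128 in DESeq2. The difference had the same direction in each set of libraries, at 0.56 among the 5 smaller libraries and 1.06 for mutant 3 against control 2 and control 3.

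*Tgfbr3*, also called betaglycan, is a co-receptor that presents ligand to the type II receptor and lies on chromosome 5 from 107106570 to 107289595 on the minus strand. In CPM, controls 1 to 4 had 46.5, 34.5, 35.7 and 50.8, and mutants 1 to 4 had 51, 55, 37.7 and 61.9. Within the larger and within the smaller libraries the mutants were above the controls, by margins as narrow as 50.8 against 51 CPM. On the log2 scale the fold change was 0.30 (SE 0.19, edgeR adjusted p = 0.467), and it was 0.20 among the 5 smaller libraries.

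Of the receptor-activated Smads, *Smad2* had nearly the same level in all libraries and *Smad3* one of the widest spreads of the family. *Smad2* lies on chromosome 18 from 76241701 to 76311747 on the plus strand and had 89, 79.6, 75 and 87.9 CPM (controls 1 to 4) against 77.2, 74.6, 76.7 and 70.4 CPM (mutants 1 to 4). Mutant 1 and mutant 3 lay between control 3 and control 2, and mutant 2 and mutant 4 below all controls. The difference between genotypes was a log2 fold change of -0.15 (SE 0.09, edgeR adjusted p = 0.466), with a 95% interval of the fold change of 0.778 to 1.05. Among the 5 smaller libraries it was -0.26, with an edgeR adjusted p of 0.106, and mutant 3 differed from control 2 and control 3 by 0.01.

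*Smad3*, the receptor-activated Smad that binds DNA directly, lies on chromosome 9 from 63646767 to 63757994 on the minus strand. Controls 1 to 4 were at 45.8, 13.7, 14.8 and 31 CPM, mutants 1 to 4 at 73.4, 47.7, 23.9 and 62.4 CPM. The smaller mutants were above all controls, and mutant 3 lay below control 1 and control 4 but above both larger control libraries. Means were 26.3 ± 15.2 CPM in controls and 51.9 ± 21.4 CPM in mutants (SD, n = 4). Its log2 fold change was 0.98 (SE 0.46, edgeR adjusted p = 0.37). With a term for library size division it was 0.70 with a smaller error (SE 0.17), and the edgeR adjusted p was 0.175.

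*Smad7*, which is induced by the pathway and shuts off the type I receptor, lies on chromosome 18 from 75367365 to 75395934 on the plus strand. In CPM, controls 1 to 4 had 59.7, 35.1, 30.9 and 50.5, and mutants 1 to 4 had 66.4, 66.8, 43.5 and 69.3. Again the smaller mutants were above all controls, and mutant 3 was above control 2 and control 3 only. Mutants differed from controls by a log2 fold change of 0.48 (SE 0.24, edgeR adjusted p = 0.381), and it was 0.29 among the 5 smaller libraries and 0.42 for mutant 3 against the larger controls.

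Of the 10 members, 8 had a higher and 2 a lower mean in mutants, where 50.2% of all genes tested had a higher one. At an unadjusted p below 0.05 in edgeR, 3 members were higher (*Tgfb1*, *Tgfb3* and *Tgfbr2*) and 0 lower, against 6.8% of all genes higher and 7.19% lower. The median log2 fold change of the members was 0.57, and that of all genes tested was 0.00. In edgeR 0 members, and 0% of all genes, passed the call rule of an adjusted p below 0.05 with a fold change above 2. In DESeq2 1 member passed it, *Tgfb1*, as did 1.25% of all genes, and *Tgfb1* also passed it in edgeR's likelihood ratio test, as did 0.597%. Among the 5 smaller libraries 6 members were higher and 1 (*Smad2*) lower at an unadjusted p below 0.05, where 12.6% of all genes were higher and 10.7% lower, and the median of the members was 0.55. For mutant 3 against control 2 and control 3 the median was 0.14. These counts describe the list and were not tested against other genes.

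**Figure D2:**
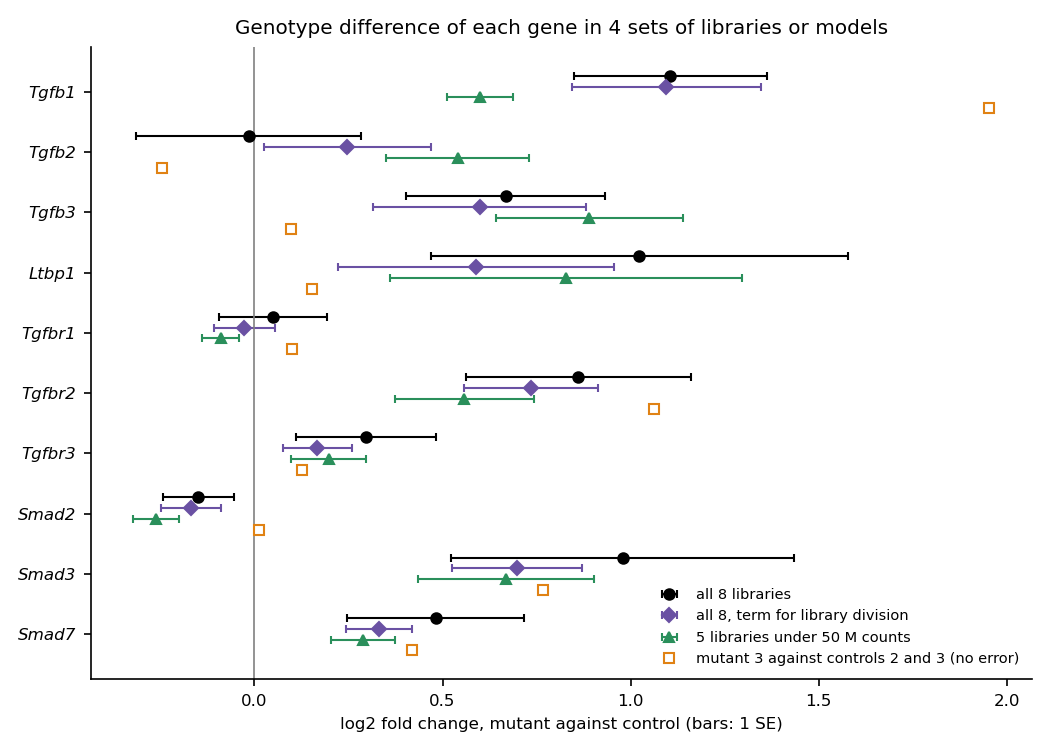
Log2 fold change of each gene, mutant against control, in 4 sets of libraries or models, with bars of 1 SE. *Tgfb1*, *Tgfbr2*, *Ltbp1*, *Smad3* and *Smad7* are among the genes to the right of 0 in all 4. *Tgfb1* runs from 0.60 in the 5 smaller libraries to 1.95 for mutant 3 against control 2 and control 3. *Tgfb2* and *Tgfbr1* change sign.

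Levels were then compared between genes per kilobase of exon length. In controls *Tgfbr1* had the highest mean level at 17.2 CPM per kb with a range that reached down to the highest library of *Smad7*. *Smad7* (9.93), *Smad2* (9.08) and *Tgfb1* (8.62 CPM per kb) followed with overlapping ranges, then *Tgfbr3* (6.88), *Smad3* (5.18) and *Tgfbr2* (4.5 CPM per kb). *Tgfb2* (1.69), *Ltbp1* (1.47) and *Tgfb3* (1.4 CPM per kb) were the lowest, with ranges that overlapped one another. In mutants *Tgfb1* was the highest at 18.5 CPM per kb, but its range overlapped that of *Tgfbr1* at 17.8 CPM per kb. *Ltbp1*, *Tgfb3* and *Tgfb2* were again lowest, at 2.98, 2.23 and 1.67 CPM per kb.

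Ratios between members within a library do not depend on the scaling between libraries. A total of 4 ratios of levels per kb were formed, chosen after the values were seen, with p-values adjusted over the 4. This adjustment does not cover that choice, so the p-values only describe these libraries. How often ratios of other genes separate the genotypes was not examined. The level of *Tgfbr2* relative to *Tgfbr1* was 0.322, 0.194, 0.215 and 0.284 in controls 1 to 4 and 0.553, 0.372, 0.401 and 0.499 in mutants 1 to 4. All mutants were above all controls, with a 1.81-fold difference of the geometric means (exact two-sided permutation test, p = 0.0286, adjusted p = 0.114). The log2 difference was 0.86 over all libraries and 0.63 among the 5 smaller ones.

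The level of *Smad3* relative to *Smad2* was 0.925, 0.309, 0.355 and 0.634 in controls 1 to 4 and 1.71, 1.15, 0.56 and 1.59 in mutants 1 to 4. *Smad3* was thus below *Smad2* per length in all controls and above it in 3 of 4 mutants, with mutant 3 among the controls (log2 difference 1.19, exact two-sided permutation test, p = 0.0857, adjusted p = 0.114). *Smad7* relative to *Smad2* was 1.38, 0.907, 0.848 and 1.18 in controls and 1.77, 1.84, 1.17 and 2.03 in mutants, where again mutant 3 alone overlapped (log2 difference 0.65, exact two-sided permutation test, p = 0.0857, adjusted p = 0.114). *Tgfb1* made up 80.2%, 65.4%, 57.7% and 84.2% of the summed level of the 3 ligands in controls and 78.6%, 81.8%, 87.1% and 82.1% in mutants (exact two-sided permutation test, p = 0.229). *Tgfb1* was the most abundant ligand per length in every library, and its lowest shares were those of control 2 and control 3.

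**Figure D3:**
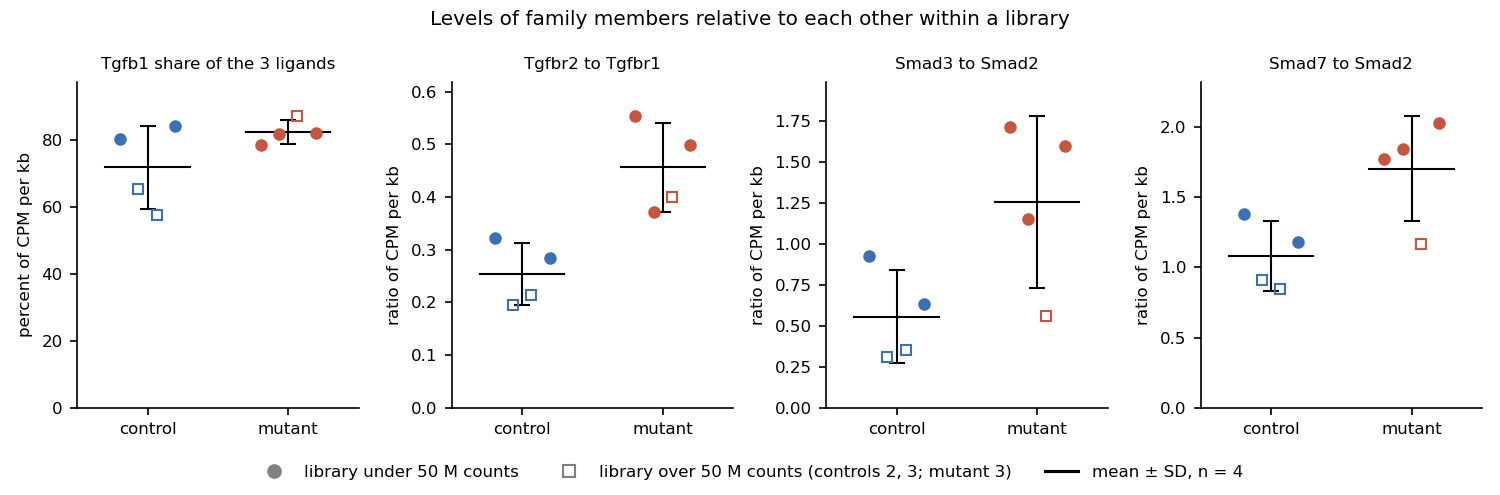
Levels of family members relative to each other within a library, as a percent or ratio of CPM per kb, by genotype, with mean ± SD of 4 libraries. The ratio of *Tgfbr2* to *Tgfbr1* lies between 0.194 and 0.322 in controls and between 0.372 and 0.553 in mutants, and mutant 3, the open square among the mutants, is the lowest mutant for both Smad ratios.

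The next question was how the rest of the pathway compared. No gene of the pathway lists passed an adjusted p of 0.05 in edgeR's quasi-likelihood test, which 0% of all genes passed. Of 17 genes that hold or release latent TGF-β, 12 had a higher and 5 a lower mean in mutants (median log2 fold change 0.66), an unadjusted p below 0.05 was reached by 5 in the higher and 0 in the lower direction (6.8% and 7.19% of all genes), and 2 were higher in DESeq2 at an adjusted p below 0.05, where 1.23% of all genes were. Among the 5 smaller libraries the median was 0.44, and an unadjusted p below 0.05 was reached by 9 in the higher and 2 in the lower direction (12.6% and 10.7% of all genes). *Fbn1*, the fibrillin to which latent complexes are fixed, had 34, 9.39, 7.35 and 30.9 CPM (controls 1 to 4) against 65.4, 65.8, 108 and 73.4 CPM (mutants 1 to 4). Every mutant library was above every control, with a log2 fold change of 1.94 and a DESeq2 adjusted p of 0.00681. *Mmp14*, a membrane-bound matrix protease, had 56.4, 18.3, 12.6 and 55.9 CPM (controls 1 to 4) against 116, 88.6, 104 and 136 CPM (mutants 1 to 4), again with no overlap and a log2 fold change of 1.63 (DESeq2 adjusted p = 0.0268). *Furin*, the protease that cuts the TGF-β propeptide, had 155, 120, 122 and 147 CPM (controls 1 to 4) against 202, 168, 143 and 190 CPM (mutants 1 to 4), with a log2 fold change of 0.37 and a DESeq2 adjusted p of 0.21.

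αv integrins release TGF-β, and *Itgav*, *Itgb3*, *Itgb5*, *Itgb6* and *Itgb8* are given here. The levels of *Itgb1*, the deleted β1 subunit gene, which were lower in mutants, are given above. *Itgav*, the αv subunit, had 367, 440, 281 and 400 CPM (controls 1 to 4) against 475, 503, 188 and 585 CPM (mutants 1 to 4). The smaller mutants were above all controls and mutant 3 below all, with a log2 fold change of 0.23 (edgeR adjusted p = 0.737). *Itgb5*, the β5 partner subunit, had 82.7, 39.1, 49.3 and 89.6 CPM (controls) against 103, 99, 101 and 108 CPM (mutants). All mutants were above all controls and lay close together (log2 fold change 0.66, adjusted p = 0.333 in edgeR and 0.181 in DESeq2). *Itgb3*, the β3 subunit, ranged from 2.09 to 21.4 CPM in controls and from 15 to 42.3 CPM in mutants. *Itgb6*, the epithelial β6 subunit, ranged from 2.43 to 28.4 CPM in controls and from 3.65 to 38.1 CPM in mutants. The ranges of *Itgb3*, *Itgb6* and *Itgb8* overlapped between genotypes. *Itgb8*, the β8 subunit, had a log2 fold change of -0.23, which was 0.62 among the 5 smaller libraries and -1.14 for mutant 3 against control 2 and control 3.

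Of 10 further receptors and co-receptors of the TGF-β and activin branch, 5 had a higher and 5 a lower mean (median log2 fold change -0.06). In DESeq2 at an adjusted p below 0.05, 1 was higher and 1 lower, against 1.23% and 0.852% of all genes. *Cd109*, a co-receptor that lowers TGF-β signalling, had 1.56, 0.58, 0.44 and 1.48 CPM (controls 1 to 4) against 2.53, 5.15, 9.9 and 6.59 CPM (mutants 1 to 4). All mutants were above all controls (log2 fold change 2.60, adjusted p = 0.249 in edgeR and 0.000495 in DESeq2). *Acvr1c*, the type I receptor ALK7 of the activin and nodal branch, had 8.1, 8.16, 9.29 and 5.58 CPM (controls) against 1.58, 2.89, 5.01 and 1.92 CPM (mutants). All mutants were below all controls, as for 3.8% of all genes (log2 fold change -1.44, DESeq2 adjusted p = 0.0171). *Acvr1b*, the activin type I receptor, had 31.2 to 38.2 CPM in controls and 38 to 47.6 CPM in mutants, with a log2 fold change of 0.29.

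The partners and regulators of the Smads were nearly level between genotypes. Of 18 genes, 9 had a higher and 9 a lower mean (median log2 fold change 0.05). In DESeq2 0 passed an adjusted p of 0.05 (2.09% of all genes). In edgeR 1 was higher at an unadjusted p below 0.05 (6.8% of all genes). That gene was *Smurf1*, a ubiquitin ligase recruited to the receptors by Smad7, with 57.6, 42.9, 42.3 and 63.5 CPM (controls 1 to 4) against 76.4, 70.1, 62.5 and 78.6 CPM (mutants 1 to 4). Only control 4 and mutant 3 were out of order (log2 fold change 0.48, edgeR adjusted p = 0.333). *Tgif1* and *Skil*, corepressors of Smad complexes, had log2 fold changes of 0.82 and 0.54, both with overlapping libraries.

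Of 25 symbols of TGF-β target genes, of which *Ccn2* and *Ctgf* name the same gene, 24 were in the table and 23 were tested, with 20 of higher and 3 of lower mean in mutants (median log2 fold change 0.68). An unadjusted p below 0.05 was reached by 10 in the higher and 0 in the lower direction (6.8% and 7.19% of all genes), 7 had every mutant above every control (4.4%), and 6 were higher in DESeq2 at an adjusted p below 0.05 (1.23%). The median was 0.57 among the 5 smaller libraries, 0.44 for mutant 3 against control 2 and control 3, and 0.42 with a term for library division. *Col1a2*, a chain of type I collagen, had 61.1, 29.5, 56.1 and 35 CPM (controls 1 to 4) against 94.4, 117, 173 and 150 CPM (mutants 1 to 4). No library overlapped (log2 fold change 1.56, adjusted p = 0.219 in edgeR and 0.000102 in DESeq2). *Lox*, which cross-links collagen, had 2.39, 0.82, 0.7 and 1.74 CPM (controls) against 5.18, 7.58, 6.28 and 11.4 CPM (mutants) (log2 fold change 2.45, DESeq2 adjusted p = 4.37e-05). *Postn*, the matrix protein periostin, had 16.1, 16, 13.1 and 10.5 CPM (controls) against 24.4, 35.9, 57.5 and 30.3 CPM (mutants) (log2 fold change 1.41, DESeq2 adjusted p = 0.000542). *Col1a2*, *Lox* and *Postn* are products of stromal cells, and summed mesenchymal markers were 271 to 346 CPM in controls and 435 to 519 CPM in mutants. Their part in the counts of target genes was not tested.

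In the branch of bone morphogenetic proteins and activins, 16 of 23 genes had a higher and 7 a lower mean (median log2 fold change 0.49), an unadjusted p below 0.05 was reached by 3 in the higher and 1 (*Bmpr1b*, a type I receptor) in the lower direction (6.8% and 7.19% of all genes), and 1 was higher in DESeq2 at an adjusted p below 0.05 (1.23%). The median fell to 0.16 among the 5 smaller libraries and 0.15 with a term for library division, and turned to -0.12 for mutant 3 against control 2 and control 3. Among the 5 smaller libraries 8 were higher and 1 lower at that unadjusted p, against 12.6% and 10.7% of all genes. *Inhba*, the activin A subunit, had 13.1, 2.47, 0.76 and 12.6 CPM (controls 1 to 4) against 40.2, 40.9, 19.9 and 49 CPM (mutants 1 to 4). All mutants were above all controls (log2 fold change 2.38, adjusted p = 0.333 in edgeR and 0.0385 in DESeq2). *Fstl1*, a secreted binder of these ligands, had 91.3, 27.7, 14.8 and 83.6 CPM (controls 1 to 4) against 140, 122, 125 and 187 CPM (mutants 1 to 4) (log2 fold change 1.40, DESeq2 adjusted p = 0.111). *Grem1*, an antagonist of bone morphogenetic proteins, reached at most 0.88 CPM in controls and 5.45 CPM in mutants, with overlap.

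**Figure D4:**
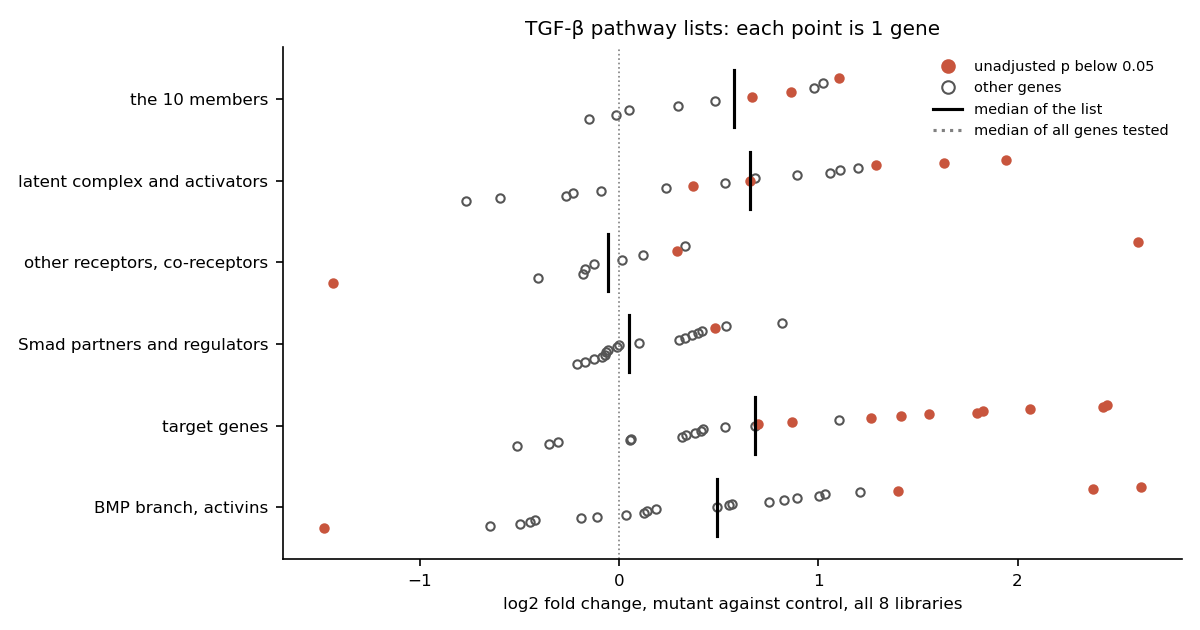
Log2 fold change of mutant against control over all 8 libraries for each tested gene of the TGF-β pathway lists, with the median of each list as a vertical bar. Filled points have an unadjusted p below 0.05. The medians range from -0.06 for other receptors to 0.68 for target genes, and 10 of the 23 target genes are filled points to the right of 0.

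Markers of other cell types of the islet preparation differed between genotypes in the same libraries. Of 12 markers of mesenchyme (fibroblasts, stellate cells and pericytes), 11 had a higher mean in mutants, 9 of them at an unadjusted p below 0.05 (6.8% of all genes), and 7 had every mutant above every control (4.4% of all genes). Their summed level came to 295, 282, 346 and 271 CPM (controls 1 to 4) against 519, 445, 435 and 505 CPM (mutants 1 to 4). Every mutant was above every control, as for *Tgfb1*. In this sum mutant 3 was the lowest mutant and control 3 the highest control. *Tgfb1* was instead highest of all in mutant 3 and lowest of all in control 3. The median log2 fold change of the 12 markers, taken gene by gene, was 0.87 among the 5 smaller libraries. For mutant 3 against control 2 and control 3 this median was 1.94. The difference of *Tgfb1* was also larger there than among the smaller libraries. No defining mesenchymal marker was at 0 in any library, and the part of these cells in the *Tgfb1* difference was not tested.

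The ductal markers followed another order. Of 8 ductal markers 7 had a higher mean in mutants, 3 of them at an unadjusted p below 0.05 (6.8% of all genes), and their summed level was 1638, 526, 310 and 1008 CPM (controls 1 to 4) against 3006, 1611, 1083 and 1864 CPM (mutants 1 to 4). *Krt19*, a keratin of ductal cells, had 22.6, 3.7, 3.1 and 5.3 CPM (controls) against 65.2, 14.8, 13 and 32.8 CPM (mutants). Mutant 1 and mutant 4 were the highest libraries and control 2 and control 3 the lowest for the ductal sum, for *Krt19* and for *Ltbp1*, *Smad3* and *Tgfbr2*. Mutant 1 and mutant 4 were also the highest for the mesenchymal sum, whose lowest libraries were control 4 and control 2. Control 2 and control 3 had the highest sums of acinar and endocrine markers. The part of ductal or other cells in the differences of *Ltbp1*, *Smad3* and *Tgfbr2* was not tested.

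Markers of blood vessels and of leukocytes overlapped between genotypes. Summed levels of 12 endothelial markers were 791 to 869 CPM in controls and 746 to 934 CPM in mutants, and those of 12 leukocyte markers were 39.4 to 97.5 CPM in controls and 48.2 to 99.1 CPM in mutants. Summed levels of 6 Schwann cell markers were 23.8 to 34.1 CPM in controls and 32.4 to 46.6 CPM in mutants.

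**Figure D5:**
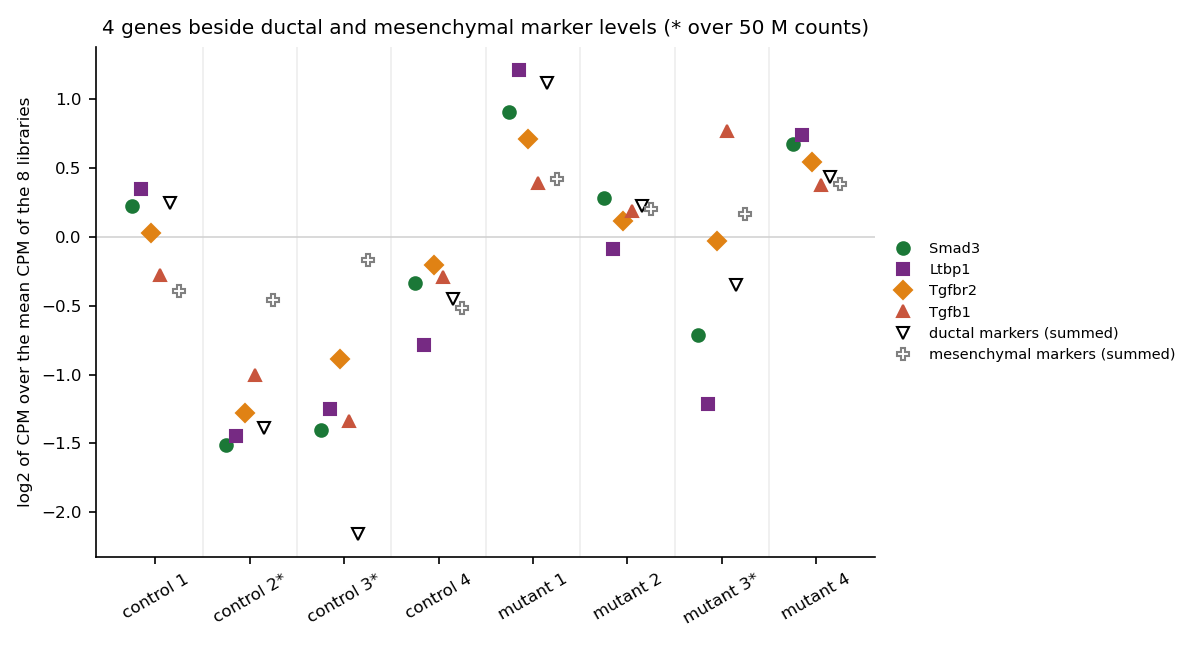
Levels of 4 genes and of summed ductal and mesenchymal markers in each library, as log2 of CPM over the mean of the 8 libraries, with an asterisk on libraries of more than 50 M counts. In mutant 3, *Tgfb1* lies above the 8-library mean with the mesenchymal markers, while *Smad3*, *Ltbp1* and the ductal markers lie below it.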

How the data were processed

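The authors aligned single-end reads of ribosome-depleted RNA to mm10 with STAR and deposited a raw count per gene and library, made with featureCounts at default settings, which ignore strand. GRCm38, STAR, featureCounts and edgeR stand in the submitters' processing notes, with no version. A second table, of the authors' own comparison with fold changes, p-values and 8 columns of CPM per library, was not used.

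All 8 libraries entered a quasi-likelihood fit of genotype alone (edgeR 4.0.16 under R 4.3.3, TMM factors, filterByExpr), and p-values were adjusted by Benjamini-Hochberg over the 15233 genes kept. A call needed both a fold change above 2 and an adjusted p below 0.05. Batches that the study's methods correct are not named in the sources used here, so a division of the libraries at 50 M counts was an alternative. Single values were compared by exact two-sided permutation tests on log2(CPM + 0.5). DESeq2 1.42.0, edgeR's likelihood ratio test, other normalizations and filters, the replicate number as a block, terms for library division and sex, the 5 libraries under 50 M counts and leaving out each library were alternatives. A fit with edgeR's legacy quasi-likelihood method, the fit without control 2 and control 3, and the ratios of members were chosen after seeing the data.

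The 10 members and all gene lists were chosen with earlier results of these data known. Named genes are the members, *Itgb1*, the αv integrin genes and the 3 genes of each pathway list with the smallest unadjusted p, with *Furin*, *Bmpr1b* and *Krt19* added after their values were seen. The result of a further gene is not reported here. Libraries held 35.1 to 67.6 M counts, and any pair of them differed by a chi-square of at least 28 a gene, so none was present more than once. By sex-linked genes 2 libraries (control 3 and mutant 3) were female and 6 male. The tests were checked on simulated counts.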

Additional observations from a re-analysis of the deposited data

Results flagged for a closer look

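In the mutants, mutant 3 lay apart from the other libraries for 2 members. *Tgfbr1* was at 93 CPM in mutant 3 and at 111 to 113 CPM in the other mutants, and its gap to the nearest library was 0.903 of the group's range. *Smad7* was at 43.5 CPM in mutant 3 and at 66.4 to 69.3 CPM in the others, a gap of 0.89 of the range. Libraries were flagged where this gap passed a cut-off that chance passes in about 1 of 20 groups of 4. All members and *Itgb1* were screened in both genotypes. Mutant 3 was also the only mutant library of more than 50 M counts and, by sex-linked genes, the only female mutant. Library size and sex can therefore not be told apart among the mutants.

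The genotype difference of *Tgfb1* was larger by 1.33 on the log2 scale in the libraries of more than 50 M counts than in the others (edgeR adjusted p = 0.0173), as given above with the share of all genes that pass this test.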

How the results depend on the processing

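*Tgfb1* was higher in mutants at an unadjusted p below 0.05 in all 20 alternatives, with log2 fold changes of 0.60 to 1.26 and adjusted p of 0.00928 to 0.612. It alone passed an adjusted p of 0.05 with a fold change above 2 in DESeq2 and in edgeR's likelihood ratio test (1 member each, adjusted p = 0.00928 and 0.0295). The 3 members higher at an unadjusted p below 0.05 became 5 with a term for sex (9.79% of all genes were higher there), 6 among the 5 libraries under 50 M counts (12.6%), and 1 to 7 when each library was left out. They were 1 without mutant 1 (4.22% of all genes), 2 without control 2, control 4 or mutant 4 (3.98%, 8.24% and 3.78%), 5 without control 1 (8.72%) and 7 without mutant 3 (8.95%). Members lower were 1 among the 5 smaller libraries (10.7% of all genes) and 1 without control 2 and control 3 (4.01%), in both cases *Smad2*.

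The log2 fold change of *Tgfb2* turned positive with total counts only (0.20), with the replicate block (0.079), with a term for library division (0.25), among the smaller libraries (0.54), without control 2 and control 3 (0.61), and in 4 of the 8 fits that left out a single library. Those 8 fits ranged from -0.22 to 0.22, with positive values without control 2, control 3, mutant 2 or mutant 4. That of *Tgfbr1* turned negative with the division term (-0.027), among the smaller libraries (-0.089) and without control 2 and control 3 (-0.15), and ranged from -0.053 to 0.13 when a single library was left out. The difference in the *Tgfb1* share of ligands, as log2 of the odds of the share, was 0.80 over all libraries and turned to -0.14 among the smaller ones. Without control 2 and control 3, log2 fold changes were smaller than over all libraries for *Tgfb1* (0.73), *Ltbp1* (0.52), *Tgfbr2* (0.45), *Smad3* (0.43), *Smad7* (0.15) and *Tgfbr3* (0.076). That of *Tgfb3* was larger there (0.74), and that of *Smad2* was -0.24. Total counts alone moved the median of all genes by 0.15. The cause of these changes was not tested.

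*Tgfb3* lost its unadjusted p below 0.05 in 8 alternatives and *Tgfbr2* in 2, while *Smad3* gained it in 9, *Smad7* in 6, *Ltbp1* in 3, *Smad2* and *Tgfb2* in 2 each (*Tgfb2* among the smaller libraries and without control 2 and control 3, higher in both) and *Tgfbr3* in 1. Libraries with the same replicate number did not all deviate together (correlations 0.43, -0.03, 0.43 and 0.23), so the number was not taken as a pairing. Mutant 1, mutant 3 and mutant 4 did correlate most with the control of their own number, and mutant 2 most with control 4 (0.22). Whether libraries of the same number form pairs is not settled by these values. The replicate block gave 5 members higher, where 10.5% of all genes were.

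With 4 libraries a genotype, errors were widest for *Ltbp1* and *Smad3* (SE 0.55 and 0.46), and the larger set of libraries holds a single mutant.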
